A study of Caenorhabditis elegans with 40 samples.

Results

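The heat shock factor HSF-1 bound the genome of young adult Caenorhabditis elegans at many places that are neither promoters nor dense groups of peaks, and those lone sites are described here. A summit was taken as isolated when it lay more than 1000 bp from the 5′ end of every protein-coding transcript and had no other summit of the same temperature within 2000 bp. By that rule 167 of 441 summits after heat shock and 195 of 500 summits at 20 °C were isolated, which is 362 of 941 in all. They fell on 236 distinct sites, since 126 sites were isolated at both temperatures, counting summits of different temperatures within 100 bp as the same site. The rule used positions only, and no score or depletion class. For comparison, 145 summits after heat shock and 115 at 20 °C were just as far from promoters but clustered, with another summit within 2000 bp. A further 129 summits after heat shock and 190 at 20 °C lay within 1000 bp of a protein-coding 5′ end and are called promoter summits.

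HSF-1 is the conserved activator of heat shock genes. It works as a trimer that binds inverted repeats of a short element, classically just upstream of chaperone genes, and in the worm it is also needed without stress, for development and in the germline. What a bound site far from any promoter does cannot be read from occupancy alone, because binding by itself shows neither an enhancer nor a regulated gene.

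In the study, chromatin immunoprecipitation with an antibody to GFP was read by sequencing in 8 groups of 2 HSF-1 libraries. In strain JTL611 a degron (aid) and gfp were fused to hsf-1 on chromosome I, the auxin receptor TIR1 was driven by the eft-3 promoter from the insertion ieSi57, and unc-119(ed3) was in the background. Strain JTL621 carried the same hsf-1::aid::gfp and unc-119(ed3), but TIR1 came from the sun-1 promoter of ieSi38, so auxin depletes HSF-1 in the soma of JTL611 and in the germline of JTL621, as the labels give the tissue. Young adults spent 2 h on auxin (depletion) or ethanol (control) plates, then 30 min in a water bath at 34 °C, or were collected at 20 °C. All animals therefore carried a tagged HSF-1, and the ethanol animals are controls for auxin, not untagged controls. The summit files name the ethanol libraries, of which each temperature had 4 across both strains. The authors' sheets list summits by the tissue in which the comparison of ethanol with auxin gave a depletion region. This gives the classes soma, germline and shared (listed for both strains), and a summit in no sheet is called unlisted here. A listing does not show that the peak was gone, and a missing listing does not show that it was unchanged. These files hold no value per library, so replicate spread could not be computed. Each test below treats summits as units, covers the counting of summits only, and says nothing of how another pair of libraries would vary.

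Isolated summits lay mostly between protein-coding genes, as summits of the other sets did. Intergenic here means outside every protein-coding gene, so such a summit can lie inside a non-coding gene or a pseudogene. Positions are as deposited and were read against the WBcel235 annotation. No source used here gives the build of these coordinates, and with every summit moved by 100 bp to the left or the right, 164 of the 167 members after heat shock stayed isolated, and 190 or 191 of the 195 at 20 °C. After heat shock 107 of the 167 were intergenic, 57 lay in introns, 2 in coding exons and 1 in a 3′ UTR. At 20 °C the counts were 131, 56, 3 and 5 of 195. As a background, positions every 1000 bp along the genome were sorted by the same distance to 5′ ends, which left 58.8% of positions distal. Of those distal positions, 41.4% were intergenic, 33.6% intronic and 21.6% in coding exons. The intergenic share of isolated summits was thus 64.1% after heat shock (95% exact interval, counting error only, 56.3% to 71.3%) and 67.2% at 20 °C (60.1% to 73.7%), against 41.4% of distal positions, and coding exons held 1.20% and 1.54% against 21.6%. Clustered summits were intergenic in 73.8% of cases after heat shock and 76.5% at 20 °C, with 0 in coding exons, and promoter summits in 62.8% and 65.8%. These shares are a description and were not tested. Intron shares of isolated summits, 34.1% after heat shock and 28.7% at 20 °C, lay close to the 33.6% of distal positions. Clustered summits were intronic in 25.5% and 23.5% of cases, and the difference was not detected (Fisher's exact test, two-sided, Benjamini-Hochberg adjusted over 34 tests, p = 0.176 after heat shock and p = 0.415 at 20 °C).

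**Figure D1:**
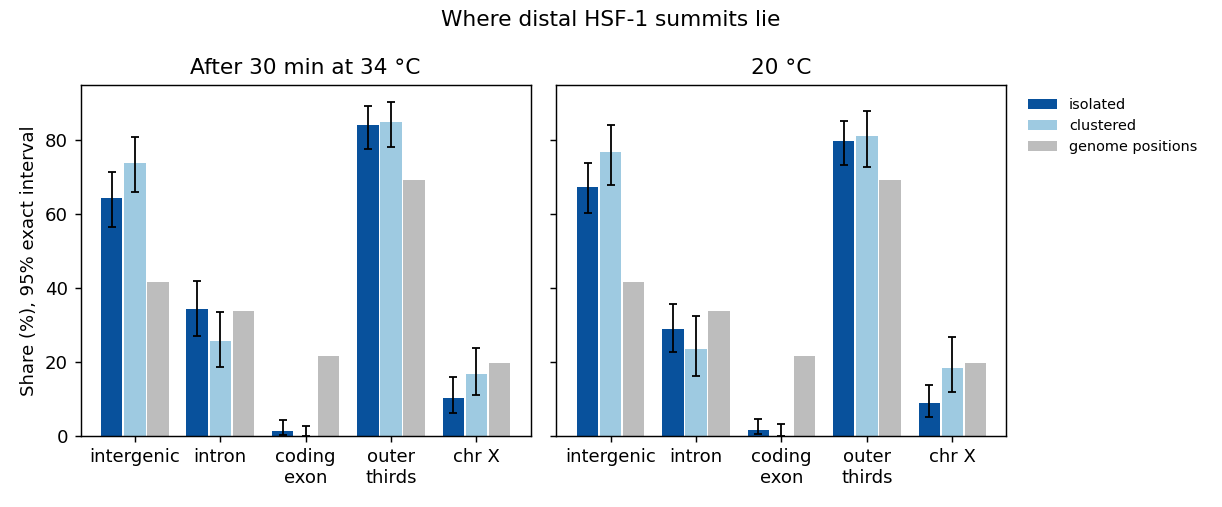
Share of isolated and clustered distal summits, and of distal genome positions every 1000 bp, in each kind of place (percent, vertical axis), after heat shock (left) and at 20 °C (right). Bars are shares with 95% exact binomial intervals, which genome positions do not carry, and the bars for chromosome ends are the 2 outer of 3 equal lengths of each chromosome. Isolated summits were intergenic in 64.1% and 67.2% of cases, against 41.4% of distal positions, and nearly absent from coding exons.

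Intergenic gaps around isolated summits were set beside those around clustered summits and around other distal positions, with no test. The median gap was 10332 bp after heat shock and 7928 bp at 20 °C for isolated summits, and 10588 bp and 11042.5 bp for clustered summits. Over 24363 distal intergenic positions of the genome it was 7666 bp. The median distance to the nearest protein-coding 5′ end was 3067 bp after heat shock, with a range of 1013 to 18302 bp, and 2723 bp at 20 °C, with a range of 1005 to 18286 bp. The nearest other summit of the same temperature lay at a median of 70576 bp after heat shock and 53764 bp at 20 °C, so most members were far beyond the isolation limit.

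The 57 intronic isolated summits after heat shock lay in 56 host genes, and the 56 at 20 °C in 55 genes. The rule bars a second summit within 2000 bp, so it largely fixes 1 summit per intron. First introns held 4 of the 57 and 5 of the 56, with introns taken between the merged exons of all transcripts of a gene. The rule bars summits within 1000 bp of a 5′ end, which can take out part of a first intron. No share of genome positions in first introns is given. Among clustered summits, which must have a neighbour, first introns held 11 of 37 after heat shock and 10 of 27 at 20 °C, from 4 and 3 host genes. Those counts share genes and were not tested against the isolated ones. The host gene was also the gene with the nearest 5′ end for 49 of 57 isolated summits after heat shock and 48 of 56 at 20 °C. Introns longer than 2000 bp held 23 and 27 of them.

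Just inside the limits, the nearest member to a promoter after heat shock was 1013 bp from a 5′ end of bath-34, and at 20 °C 1005 bp from mtm-3. Just outside, a summit in an intron of W01A11.1 lay at 995 bp after heat shock and at 998 bp at 20 °C. The closest pair of members was 2184 bp apart after heat shock, between math-34 and fbxb-39. At 20 °C it was 2087 bp apart, in intron 4 of Y111B2A.12. The widest-spaced clustered summits were 1802 bp and 1901 bp from a neighbour. One site shows how a few bases set the label, as the summit in intron 1 of F54F12.2 lay 1030 bp from the 5′ end at 20 °C, where it was isolated, and 981 bp after heat shock, where it was a promoter summit.

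Shared depletion was the most frequent class of isolated summits. After heat shock 99 of 167 were in the shared sheet (59.3%), where the background over all 441 summits was 58.3. Another 45 were germline (26.9%, background 20.9), 14 soma (8.38%, background 14.5) and 9 unlisted (5.39%, background 6.35). At 20 °C 92 of 195 were shared (47.2%, background 48.4), 66 germline (33.8%, background 35.8), 21 soma (10.8%, background 9.4) and 16 unlisted (8.21%, background 6.4). Read against these backgrounds, isolated summits as a whole lay within about 6 points of the average of each file, and wider differences appeared against the clustered and promoter sets. Every listed isolated summit had a depletion region of its own, whereas the 116 shared clustered summits after heat shock came from 91 regions and the 74 at 20 °C from 61. The rule largely fixes this contrast, since it bars a neighbour within 2000 bp for isolated summits and requires it for clustered summits.

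Soma-class binding after heat shock was rarer at isolated sites than at promoters. The soma sheet held 14 of 167 isolated summits, against 48 of 129 promoter summits. The difference, isolated minus promoter, was -28.8 percentage points (adjusted Fisher's exact p = 4.86e-08). The difference was present among strong summits, here those that reached the median score within their own list, and among weak summits, those below it. Among strong summits the counts were 0 of 85 isolated and 7 of 42 promoter summits (adjusted Fisher's exact p = 0.0103), and among weak ones 14 of 82 and 41 of 87 (adjusted p = 0.000857). At 20 °C the soma sheet held 21 of 195 isolated and 25 of 190 promoter summits, and no difference was detected (adjusted Fisher's exact p = 0.582).

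Shared-class binding showed the opposite side of that contrast. After heat shock 99 of 167 isolated summits were shared, against 42 of 129 promoter summits, which made +26.7 points (adjusted Fisher's exact p = 8.25e-05). Among strong summits the difference was 15.5 points, and among weak ones 12.8 points, and neither passed (adjusted Fisher's exact p = 0.240 and p = 0.141). At 20 °C the shared share was 7.18 points higher at isolated summits than at promoter summits and did not pass (adjusted Fisher's exact p = 0.237).

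Against clustered summits the direction turned. After heat shock the shared share differed by -20.7 points between isolated and clustered summits, of which 116 of 145 were shared (adjusted Fisher's exact p = 0.000621). At 20 °C it differed by -17.2 points, with 74 of 115 clustered summits shared (adjusted Fisher's exact p = 0.0155). Soma summits were more frequent among isolated sites. They were 14 of 167 isolated and 2 of 145 clustered after heat shock (adjusted Fisher's exact p = 0.0247), and 21 of 195 isolated and 1 of 115 clustered at 20 °C (adjusted p = 0.00190). With 1 summit counted per depletion region the soma difference after heat shock was 6.67 points and missed the threshold (adjusted Fisher's exact p = 0.0503). Among strong summits, the shared class took in 80 of 85 isolated and 87 of 94 clustered after heat shock, and 82 of 102 isolated and 69 of 85 clustered at 20 °C, so these contrasts with clusters were not seen among strong summits. With isolation set at 5000 bp, the soma and shared contrasts with clusters at 20 °C did not pass (adjusted Fisher's exact p = 0.191 and p = 0.146). Germline and unlisted shares of isolated summits passed no test against either set, with adjusted p between 0.0663 and 0.708 by Fisher's exact test.

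**Figure D2:**
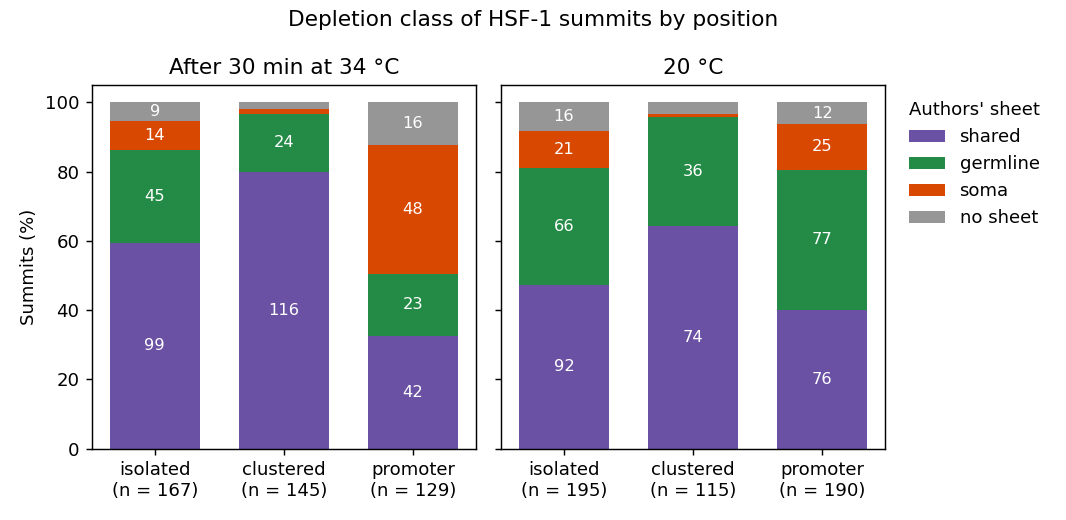
Percent of summits in each of the authors' depletion sheets (vertical axis) for isolated, clustered and promoter summits, after heat shock (left) and at 20 °C (right). Numbers in the bars are counts of summits. Soma summits were 14 of 167 isolated, 2 of 145 clustered and 48 of 129 promoter summits after heat shock.

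Peak strength tracked class closely among isolated sites. Scores are the authors' peak scores, whose scale is not stated, and they are compared only within a temperature. After heat shock the median score was 9513 for shared, 632 for germline, 213 for soma and 126 for unlisted isolated summits. At 20 °C the medians were 2196, 255, 121 and 80.3 in the same order of classes. Of the 99 shared members after heat shock, 80 reached the file median of 2884, and none of the 14 soma members did. This order was not particular to isolated sites. After heat shock the medians were 7154, 1340, 946 and 147 for clustered and 7547, 370, 312 and 130 for promoter summits. At 20 °C they were 902, 149, 113 and 60.8 for promoter summits. Clustered summits at 20 °C had 3514, 425, 1829 (1 soma summit) and 230. Class and score moved together at isolated sites, and the part of strength in the class was not tested.

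With all classes together, isolated summits were of middle strength. After heat shock 85 of 167 reached the file median, against 94 of 145 clustered summits (adjusted Fisher's exact p = 0.0450) and 42 of 129 promoter summits (adjusted p = 0.00767). At 20 °C 102 of 195 reached the median of 470.5, against 85 of 115 clustered (adjusted Fisher's exact p = 0.000973) and 63 of 190 promoter summits (adjusted p = 0.000973). The contrast with clusters after heat shock did not hold with 1 summit per depletion region, where 85 of 167 isolated and 70 of 117 clustered summits reached it (adjusted Fisher's exact p = 0.232). With promoters drawn at 2000 bp, the contrasts with promoter summits were 10.6 points after heat shock and 11.5 points at 20 °C and did not pass (adjusted Fisher's exact p = 0.159 and p = 0.0775). Isolated scores spanned 51.7 to 269316 after heat shock and 23.7 to 117100 at 20 °C.

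**Figure D3:**
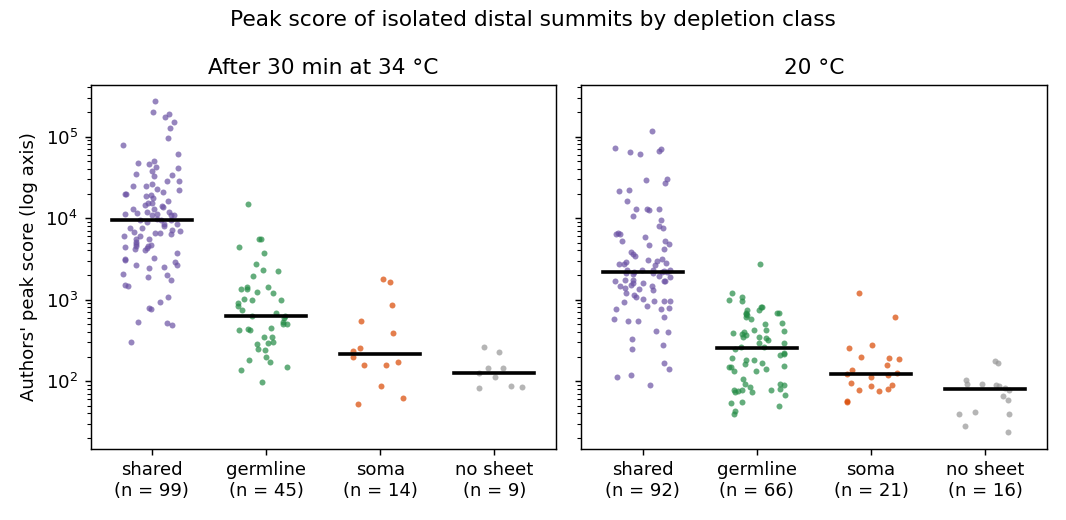
Authors' peak score of every isolated summit (log axis) by depletion class, after heat shock (left) and at 20 °C (right). Points are summits and black lines are medians, which were 9513, 632, 213 and 126 after heat shock for shared, germline, soma and unlisted summits.

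The strongest isolated sites were shared at both temperatures and sat at the same places. All of the 10 highest scores at each temperature were shared, and 7 sites were in both top 10 lists. The first was on chromosome X at position 143419 after heat shock, with a score of 269316, and at 143424 at 20 °C, with a score of 117100. It lay 2170 bp upstream of Y73B3A.8 in a 6874-bp gap whose other flank, Y73B3A.11, is transcribed away from it. A second site on X, at 2003067 with a score of 197569 after heat shock and at 2003054 with 60911 at 20 °C, lay 5033 bp upstream of Y40A1A.3.

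Chromosome V held a pair of strong sites in a single gap of 26128 bp between fbxa-214, which belongs to the F-box family, and Y38A10A.7. The one at 6072636 scored 191265 after heat shock, and its counterpart at 6072640 scored 71561 at 20 °C. The other, at 6089044 and 6089043, scored 94723 after heat shock and 29259 at 20 °C. These sites were 16408 bp apart after heat shock, so both counted as isolated. Also on V, the site at 9603718 scored 61837 after heat shock and 21707 at 20 °C, and lay 4838 bp upstream of dop-2, which encodes a D2-like dopamine receptor.

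Chromosome IV held others. The site at 15059368 scored 174643 after heat shock and 71259 at 20 °C. It lay downstream of Y41E3.13 between convergent genes and 93 bp from the non-coding gene Y41E3.460. The site at 15896068, 1835 bp upstream of the chemoreceptor gene srv-14, scored 125945 after heat shock and 66963 at 20 °C. A site upstream of Y54G2A.38 had its summit at 2756069 after heat shock (79645) and at 2755896 at 20 °C (30349). Those summits were 173 bp apart, beyond the 100 bp used to pair sites, so the pair counts as unpaired although both were shared. One of the 10 strongest at 20 °C, at 13847484 downstream of rga-5, a RhoGAP gene, scored 26692, and after heat shock its counterpart scored 46062 but had a neighbour and was clustered.

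Some of the strongest sites were inside genes. The site at 13447655 on chromosome III was in intron 7 of 15 of cua-1, which encodes a copper-transporting ATPase, and scored 149192 after heat shock and 65086 at 20 °C. On II, a site in intron 3 of 9 of zyg-9, which encodes a microtubule-binding protein of the spindle, scored 47523 after heat shock and 22101 at 20 °C. On I, a site at 13614138 in intron 10 of 18 of agef-1, which encodes an Arf guanine nucleotide exchange factor, scored 50434 after heat shock, and its counterpart at 20 °C was clustered with a score of 31827. None of these nearest or host genes is in the list of chaperone genes used below.

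These sites were listed in the depletion comparisons of both tissues. At the first X site the authors' deposited differential score was 1869 in the germline and 802 in the soma after heat shock, and 8398 in the germline and 156 in the soma at 20 °C. At the second X site it was 3820 in the germline and 1403 in the soma after heat shock, and 11792 in the germline and 244 in the soma at 20 °C. The dop-2 site had 1639 in the germline and 81.5 in the soma after heat shock. The deposited header calls this score the negative logarithm of a p-value without a base, so only its rank within a sheet is used. Germline and soma scores come from different strains and are not compared.

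Within the shared class, isolated summits at 20 °C had larger germline differential scores than promoter summits. The median was 426 for 92 isolated, 689 for 74 clustered and 117 for 76 promoter summits. The median of all shared summits at 20 °C was reached by 53 of 92 isolated and 16 of 76 promoter summits (Fisher's exact test, adjusted over 12 tests chosen after the data were seen, p = 1.07e-05). Against clusters, 52 of 74, no difference was detected (adjusted Fisher's exact p = 0.220). After heat shock the medians were 193, 181 and 134, and 53 of 99 isolated against 17 of 42 promoter summits reached the median, which did not pass (adjusted Fisher's exact p = 0.339). Soma differential scores showed no difference that passed at either temperature. Their medians were 51.3, 47.9 and 48.8 after heat shock and 25.5, 36.7 and 28.1 at 20 °C for isolated, clustered and promoter summits. Peak score moves with the differential score, since among weak summits none of 10 isolated or 25 promoter shared summits at 20 °C reached the median, and its part in the contrast was not tested.

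**Figure D4:**
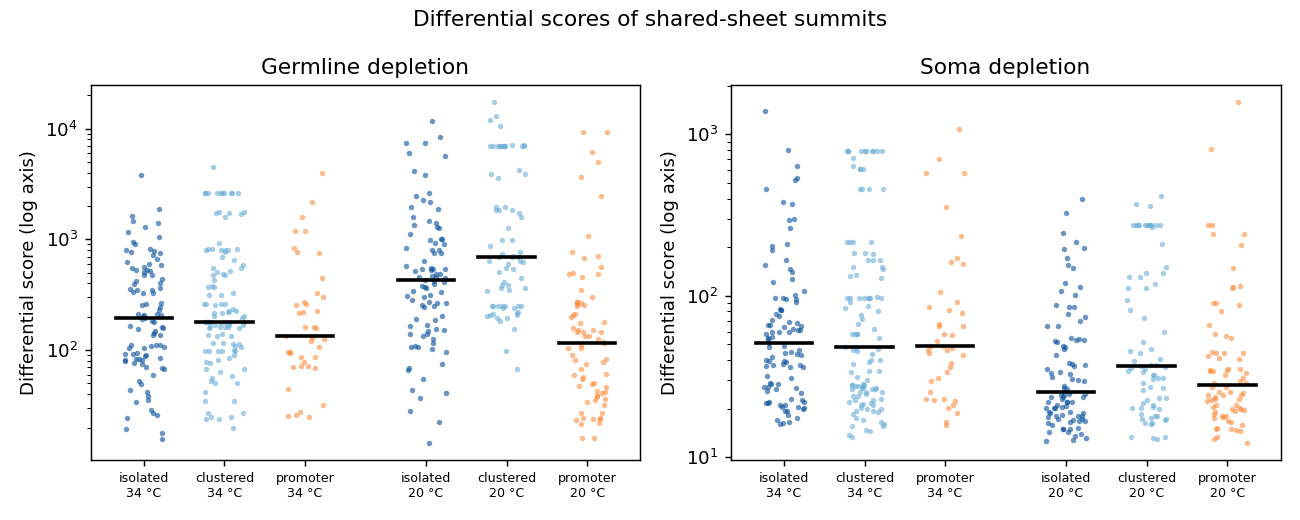
Authors' differential score of shared-class summits (log axis) for germline depletion (left) and soma depletion (right), by set, after heat shock and then at 20 °C. Points are summits, which share a value where they share a depletion region, and lines are medians. At 20 °C the germline medians were 426 for isolated, 689 for clustered and 117 for promoter summits.

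Most isolated sites were found at both temperatures. Of the 167 after heat shock, 127 (76.0%) had a summit at 20 °C within 100 bp. That share did not differ detectably from clustered summits (122 of 145) or promoter summits (101 of 129), with adjusted p = 0.153 and p = 0.699 by Fisher's exact test. Of the 195 at 20 °C, 141 (72.3%) had a counterpart after heat shock. This was lower than for clustered summits, 109 of 115 (adjusted Fisher's exact p = 7.69e-06), and higher than for promoter summits, 100 of 190 (adjusted p = 0.000621). Among strong summits both contrasts were under 1 point. Among weak summits the one with promoters was 14.5 points and did not pass (adjusted Fisher's exact p = 0.141). Of the 141, 126 were isolated after heat shock too, 14 had become clustered and 1 was a promoter summit.

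Class marked which isolated sites were paired. At 20 °C a counterpart was found for 88 of 92 shared, 49 of 66 germline, 4 of 21 soma and 0 of 16 unlisted members. After heat shock it was found for 91 of 99 shared, 27 of 45 germline, 7 of 14 soma and 2 of 9 unlisted members. Scores ran in the same order of classes, so the part of strength was not tested.

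At the 126 sites isolated at both temperatures the summits nearly coincided. The median distance was 6 bp, 107 pairs lay within 20 bp, and the widest was 83 bp apart. Scores at the 2 temperatures had a Spearman rho of 0.921 over these 126 sites. It is given as a description, since within each temperature all sites come from the same libraries.

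The depletion class was the same at both temperatures for 86 of the 126 sites (68.3%). Shared at both were 67, germline at both 16 and soma at both 3. Of the rest, 23 were shared after heat shock and germline at 20 °C, and 11 the reverse. Counting every change to or from the germline sheet, 11 sites were germline after heat shock only and 25 at 20 °C only (exact binomial test, two-sided, p = 0.0288). Among strong and among weak summits that imbalance did not pass (exact binomial test, p = 0.143 and p = 0.167), although the direction was the same. The other changes were 2 sites soma after heat shock and shared at 20 °C, 2 soma and germline, 1 unlisted and soma, and 1 unlisted and shared. The imbalance was not particular to isolated sites. Of clustered summits at 20 °C, 29 were germline and shared after heat shock, and 4 the reverse. Of promoter summits the counts were 11 and 0. Over all summits the germline share was 20.9% after heat shock and 35.8% at 20 °C.

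**Figure D5:**
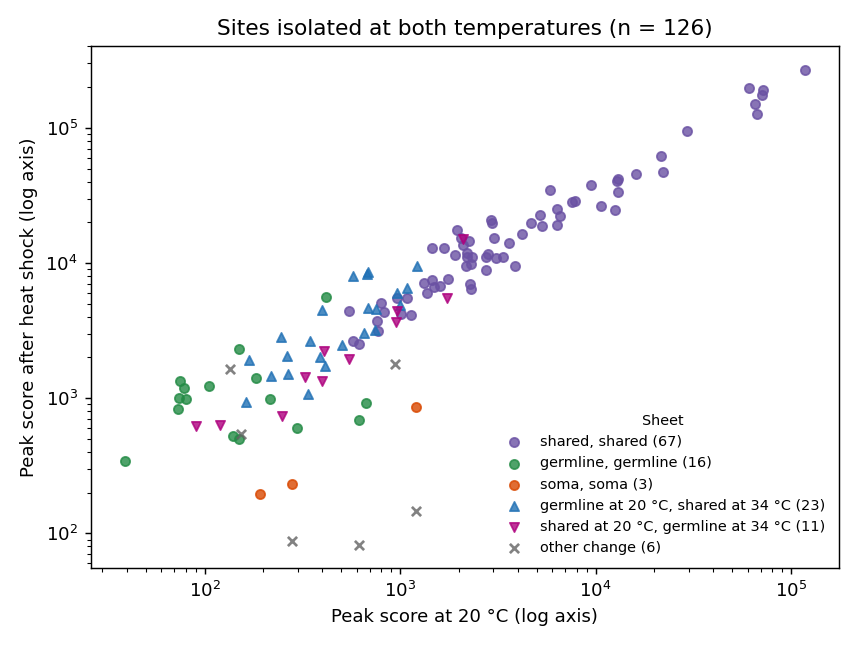
Authors' peak score after heat shock (vertical, log axis) against 20 °C (horizontal, log axis) at the 126 sites isolated at both temperatures, marked by depletion class at each temperature. The 67 sites shared at both temperatures hold the highest scores, and the 23 that were shared after heat shock and germline at 20 °C lie in the middle of the range. The scales of the 2 axes are not known to be comparable.

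Sites that were germline at 20 °C and shared after heat shock included one at 778228 on chromosome I, downstream of T06A4.1 with the zinc finger homeobox gene zfh-2 on its other flank. It scored 9445 after heat shock and 1220 at 20 °C. Another, at 2599358 on II, 1118 bp upstream of F33H12.1, scored 8552 after heat shock and 684 at 20 °C. The site at 1968351 on II, 12683 bp upstream of math-49, a gene of the MATH domain family, scored 8360 and 681. In the reverse direction, a site in the only intron of Y49F6C.6 on II was germline after heat shock with a score of 15063, the highest of that class, and shared at 20 °C with 2104. A site downstream of clc-21, named as a claudin-like gene, on V was germline after heat shock (5463) and shared at 20 °C (1743). The 20 °C soma differential scores were 22.0 at Y49F6C.6 and 23.6 at clc-21, both below the median of 25.5 for shared isolated summits at 20 °C.

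A move from shared at 20 °C to soma after heat shock was rare at isolated sites. It was seen at 2 of 88 shared isolated summits with a counterpart and at 27 of 60 shared promoter summits, a difference of -42.7 points (adjusted Fisher's exact p = 8.01e-10). It held among strong summits, with 1 of 80 isolated and 18 of 50 promoter summits (adjusted Fisher's exact p = 5.87e-07). None of 72 clustered summits made that change. An isolated case at 10049384 on V scored 1804 after heat shock and 936 at 20 °C. It lay between the convergent genes F57A8.1 and yif-1. The nearest 5′ end, 2771 bp away, was that of the chemoreceptor gene str-118, which does not flank the site. The other, downstream of mrpl-51 on IV and named after its values were seen, scored 87.9 and 279.

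A move from germline at 20 °C to shared after heat shock took in 27 of 49 isolated summits with a counterpart, 29 of 35 clustered and 11 of 31 promoter summits. The contrast with clusters was -27.8 points (adjusted Fisher's exact p = 0.0394), and with 1 summit per depletion region, or with isolation set at 1000 or 5000 bp, it missed the threshold (adjusted p = 0.0565, p = 0.0976 and p = 0.325). Against promoters no difference was detected (adjusted Fisher's exact p = 0.220).

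Like most soma summits at promoters, soma-class isolated sites were weak, and they were few. The 3 that were soma at both temperatures, picked out after their classes were seen, were at 12102594 on II, 2605 bp upstream of Y17G7B.17, in intron 4 of Y111B2A.12 on III, and in intron 9 of 12 of jun-1 on II, a gene for an AP-1 family transcription factor. Their scores were 863, 232 and 195 after heat shock and 1201, 281 and 193 at 20 °C. The jun-1 site was just beyond the limit of 1000 bp, at 1018 bp from a 5′ end of jun-1 after heat shock and 1021 bp at 20 °C. Another soma site after heat shock, at 10262885 on IV, 3228 bp upstream of F01G10.9, scored 1641 and was germline at 20 °C with 135. At 20 °C the second-highest soma score, 614.5, was at 14033340 on IV in an intergenic gap with the non-coding genes Y37A1B.336 and Y37A1B.331, and after heat shock this site scored 82.6 and was unlisted.

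Strong germline sites included one in intron 4 of 6 of nspg-9 on IV, germline at both temperatures, with a score of 5589 after heat shock and 418 at 20 °C. At 20 °C the highest germline score, 2712, was at position 229 of chromosome I, at the very end of the assembled sequence, and had no counterpart after heat shock. A second germline summit near that end, at 3791, overlapped the small nucleolar RNA gene Y74C9A.6 and scored 346, also with no counterpart. The germline site at 2386785 on II, 1190 bp upstream of F16G10.9, scored 1085 at 20 °C and was shared after heat shock with 6501.

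Isolated summits without a counterpart were led at both temperatures by the Y54G2A.38 site. After heat shock the next was a shared site in intron 10 of 10 of Y32B12B.2 on V, at 16548247, with a score of 33074. It was followed by a germline site downstream of the RecQ helicase gene rcq-5 on III with 2753, and shared sites in introns of W05F2.4 and acd-5 on I with 794 and 756. At 20 °C a shared site in intron 1 of Y71G12B.33 on I scored 2684. A germline site 201 bp past the end of klp-7, a kinesin-13 microtubule depolymerase, scored 426, and one in the 3′ UTR of R03D7.2 scored 372. A missing counterpart means only that the other list held no summit within 100 bp.

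Non-coding genes at isolated summits were counted beside those of the other sets. No share of genome positions that near a non-coding gene is given, so the counts and absences here have no genome background. After heat shock 9 of 167 had an annotated non-coding gene within 100 bp, against 4 of 145 clustered and 10 of 129 promoter summits, and at 20 °C 16 of 195, against 4 of 115 and 29 of 190. No difference passed Fisher's exact test after adjustment. By kind, the 9 after heat shock comprised 6 summits at ncRNA genes, 2 at lincRNA genes and 1 at an snRNA gene. No isolated summit lay within 100 bp of a piRNA or tRNA gene at either temperature, and neither did any clustered summit. Promoter summits had no tRNA gene that near either, and a piRNA gene at 1 summit after heat shock and 2 at 20 °C. Pseudogenes, counted apart, lay at 10 of 167 isolated, 5 of 145 clustered and 1 of 129 promoter summits after heat shock. At 20 °C they lay at 10 of 195, 4 of 115 and 2 of 190, with no test made.

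The highest-scoring of these was the Y41E3.460 site above, whose 20 °C summit lay 89 bp from that gene. Next, a shared site inside Y116A8C.48 on IV scored 8901 after heat shock and 2763 at 20 °C. A site inside C23H5.10, itself within intron 3 of 9 of C23H5.11, scored 4642 and was shared after heat shock, and scored 685 and was germline at 20 °C. The lincRNA gene linc-169 on II held a germline site at both temperatures with 920 after heat shock and 669 at 20 °C, and linc-76 on III held a germline site after heat shock with 242. Near the snRNA gene sup-6, inside F58G1.7 on II, the summit scored 145 and was unlisted after heat shock, and scored 1207 and was shared at 20 °C. These are values of separate lists and are not set against each other.

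Chaperone genes were seldom the nearest genes of isolated sites, and they are a small share of all genes. The rule bars summits within 1000 bp of a 5′ end, so it takes out any at chaperone promoters and partly fixes this count. No such count is given for clustered or promoter summits, so it does not describe HSF-1 sites in general. Of 160 distinct nearest genes after heat shock, 0 were among the 78 genes of a list of chaperone families, and 1 of 186 at 20 °C (0.538%). That list makes up 0.391% of the 19973 annotated protein-coding genes, so either count is near the background. The single case was hsp-25, which encodes a small heat shock protein. The site lay 2720 bp upstream of it on X at 6042364, was soma-class with a score of 77.5, and had no counterpart after heat shock.

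By chromosome, isolated summits after heat shock numbered 28 on I, 27 on II, 19 on III, 41 on IV, 35 on V and 17 on X. At 20 °C they numbered 26, 32, 29, 52, 39 and 17. Chromosome IV held 24.6% of isolated summits after heat shock and 26.7% at 20 °C. Clustered summits were on IV in 31.7% and 34.8% of cases, promoter summits in 15.5% and 21.6%, and distal genome positions in 17.7%, with no test made. Chromosome X held 10.2% of isolated summits after heat shock and 8.72% at 20 °C, against 19.5% of distal genome positions. Clustered summits were on X in 24 of 145 cases after heat shock and 21 of 115 at 20 °C, and promoter summits in 4 of 129 and 7 of 190. Only the contrast with clusters at 20 °C passed (adjusted Fisher's exact p = 0.0496), and it was lost with promoters drawn at 2000 bp and with isolation set at 1000 or 5000 bp (adjusted p = 0.240, p = 0.292 and p = 0.304). The strongest isolated site of either temperature was on X all the same.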

How the data were processed

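HSF-1 ChIP libraries were made with an antibody to GFP, per the labels' protocols. Libraries of RNA polymerase II and input were left out. The submitters' processing notes name Bowtie2 and MACS2 without versions, and no source used here gives settings, filters or a genome build. The authors deposited summits with a peak score and, per the file headers, sheets of depletion regions with a differential score headed as a negative log p-value, taken here as a score because its base is not stated. Neither score's scale is stated, so scores were used only within a file, and 8 exact repeats in the germline sheet after heat shock were dropped.

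Positions were read against the Ensembl release 115 annotation of WBcel235 with Python 3.11.15. A summit had a class if the sheets listed it at the same position. Shares were compared by 2-sided Fisher's exact tests (scipy 1.17.1), with Benjamini-Hochberg adjustment over 34 planned tests and over 12 tests added after seeing the data. The code was tested on simulated summits. Members, lists and tests were chosen with earlier results of these data known. Named sites were the 10 highest scores at each temperature, the 3 highest of each class, the 5 highest without a counterpart, up to 8 with a non-coding gene, those near chaperone genes, and the highest with differing sheets. Any other named site is said to have been picked after its values were seen.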

Additional observations from a re-analysis of the deposited data

How the results depend on the processing

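Of 390 values recomputed under 15 other settings, 317 kept their direction and their side of the threshold (0.05, adjusted). All changes are isolated minus comparison set in percentage points, and the cause of each was not tested unless named. The lower soma share of isolated summits against promoters after heat shock kept its call under all settings in which it was recomputed, as did the rarity of the shared-to-soma change against promoters.

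Limiting the summits by score changed many calls, and either limit also leaves fewer summits. With summits at or above the file median alone, these calls were lost: soma against clusters (0 after heat shock, 0.784 at 20 °C), shared against promoters after heat shock (15.5), shared against clusters at 20 °C (-0.784), counterparts at 20 °C (-0.588 against clusters, 0.233 against promoters), X against clusters at 20 °C (-5.49), the germline-to-shared change against clusters (-16.9) and the excess of sites germline at 20 °C only, which was 7 sites. The sign turned for shared (1.56), germline (-1.56) and counterparts (1.90) against clusters after heat shock, counterparts against promoters after heat shock (0.0280), shared (-0.560) and germline (1.77) against promoters at 20 °C, and soma differential scores against clusters after heat shock (-3.12). With summits below the median alone, chosen after seeing the data, calls were lost for soma against clusters (13.2) and shared against promoters (12.8) after heat shock. At 20 °C they were lost for shared against clusters (-5.91), counterparts against promoters (14.5), X against clusters (-19.1), the germline-to-shared change against clusters (-31.2), germline differential scores against promoters (0, as none reached the median) and the excess of sites germline at 20 °C only (7 sites). Germline against promoters after heat shock passed (24.6). Soma (2.32) and shared (-8.93) against promoters at 20 °C turned sign, as did germline (-18.4) and intron (-3.01) shares against clusters at 20 °C, germline differential scores against clusters (-10.3) and soma differential scores against promoters (-0.585) after heat shock, and soma differential scores against clusters at 20 °C (10.0).

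With promoters drawn at 500 bp, germline after heat shock passed against clusters (10.9) and promoters (17.8), X against promoters at 20 °C passed (5.99), soma differential scores against clusters at 20 °C passed (-18.9), and those against promoters after heat shock turned (-6.25). At 2000 bp, 129 summits were isolated at 20 °C. Germline (13.7) and counterparts (-12.8) against clusters after heat shock passed. Summits at the file median against promoters (10.6 after heat shock, 11.5 at 20 °C), X against clusters at 20 °C (-7.33) and the germline-to-shared change against clusters (-28.8) did not. Soma (1.37), shared (-2.95) and germline (0.445) against promoters at 20 °C turned, and so did soma differential scores after heat shock (-0.471 against clusters, -4.28 against promoters).

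With isolation at 1000 bp, unlisted against promoters after heat shock (-7.31), X against promoters (8.94 after heat shock, 7.14 at 20 °C) and non-coding genes against clusters (6.02 after heat shock, 8.66 at 20 °C) passed. Shared (-14.8) and X (-5.63) against clusters at 20 °C and the germline-to-shared change against clusters (-26.0) did not. Germline against clusters at 20 °C (-0.0110) and soma differential scores turned (-5.60 against clusters and -1.85 against promoters after heat shock, 0.904 against promoters at 20 °C). At 5000 bp, summits at the file median against clusters after heat shock (-12.2), and against clusters at 20 °C soma (5.13), shared (-10.5), X (-5.00) and the germline-to-shared change (-17.5) did not pass, X against promoters after heat shock passed (8.31), and germline against clusters at 20 °C (-1.22) and germline differential scores against clusters after heat shock (-1.55) turned. With counterparts within 50 bp, the share after heat shock was lower than in clusters (-12.8). With 1 summit per depletion region, chosen after seeing the data, soma against clusters (6.67), the file median against clusters (-8.93), both after heat shock, and the germline-to-shared change against clusters (-28.2) did not pass. Fewer clustered summits enter that setting. Coordinates moved by 100 bp either way, also added later, changed the call of none of the 8 results recomputed (intron shares, non-coding genes and the number of isolated summits).

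No paired analysis was possible because the files hold no values per library. For the same reason no replicate was left out. Planned checks of heat shock elements, repeated sequence and 1 entry per repeat family were not run, as no genome sequence was used here. The depth of the libraries behind these lists is unknown.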

Other observations

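Isolated summits lay mainly toward the ends of chromosomes. With each chromosome cut into 3 equal lengths, the 2 outer ones held 140 of 167 (83.8%) after heat shock and 155 of 195 (79.5%) at 20 °C, against 69.2% of distal genome positions. Clustered summits were at 84.8% and 80.9%, and promoter summits at 73.6% and 69.5%, with no test made. Chromosome IV held 41 isolated summits after heat shock and 52 at 20 °C, and 24 (58.5%) and 29 (55.8%) of these had an annotated piRNA gene within 5000 bp. So had 36 of 46 and 31 of 40 clustered summits and 3 of 20 and 9 of 41 promoter summits on IV, and 47.8% of its distal genome positions. Chromosome IV is the known home of most worm piRNA genes. Over all chromosomes, 31 of 167 isolated, 44 of 145 clustered and 9 of 129 promoter summits after heat shock had a piRNA gene that near, and 41 of 195, 40 of 115 and 20 of 190 at 20 °C. The strong site near srv-14 on IV had 43 piRNA genes within 5000 bp, and the site near Y41E3.460 had 25.

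Of 107 isolated intergenic summits after heat shock, 58 lay between tandem genes, 28 between divergent and 21 between convergent genes. At 20 °C, of 129 with a gene on either side, the counts were 73, 31 and 25. The tandem share was 54.2% and 56.6%, near the 53.7% of distal intergenic positions, of which 30.8% were divergent and 15.5% convergent. Clustered summits numbered 42, 38 and 27 of 107 after heat shock and 39, 30 and 19 of 88 at 20 °C in the same order. Among the nearest genes, chemoreceptor families (names in sr and str) made up 14 of 160 after heat shock (8.75%) and 13 of 186 at 20 °C (6.99%), against 6.83% of all protein-coding genes. Genes of the MATH families, bath-34, math-34 and math-49, made up 3 of 160 after heat shock (1.88%), against 0.365% of all genes, and 1 of 186 at 20 °C (0.538%). After heat shock the bath-34 summit was the member nearest to the 5′ end limit, and the math-34 summit was in the closest pair of members. F-box families made up 3 of 160 and 2 of 186 (1.88% and 1.08%, against 1.61%), and nuclear receptors 2 of 160 and 3 of 186 (1.25% and 1.61%, against 1.35%). Histone, ugt and cyp genes, at 0.360%, 0.335% and 0.371% of all genes, were the nearest gene of 0 isolated summits, which at this number of genes is near the background. These shares are descriptions without a test, and no share among the nearest genes of distal genome positions is given.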
